A study of Rattus norvegicus with 2 samples.

Results

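The genes described here are 10 neutrophil genes of the rat: the calgranulins S100a8 and S100a9, the leukocyte protease inhibitor Slpi, the adhesion receptor subunit Itgb2, the surface receptors Csf3r, Cxcr2 and Fpr1, and the granule proteins Mmp8, Mpo and Prtn3. They were looked up by the RefSeq accession of each non-control array probe, which found probes for 9 of the 10 genes, out of 13667 genes that could be named in this way. No probe was named Mpo, and that gene was not analysed here. The members were selected on neutrophil function with their ratios between these same 2 arrays already known, so their values are a description with no test attached.

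Liver RNA came from Sprague Dawley rats in 2 groups. The senecionine group received 35 mg/kg of senecionine, a plant alkaloid of the pyrrolizidine class that damages the liver, given intragastrically, and the control group received sodium chloride. Livers of both groups were collected after 36 h, and tissue of 3 animals per group was pooled, so that each group is 1 pool on 1 Agilent one-colour array and differences between animals cannot be estimated. The series' design text also speaks of 2 independent experiments, which is read here as the 2 arrays, though its wording leaves this unsure. Age and sex of the animals are not given in the sources used here.

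All 8 hepatocyte markers with an unflagged probe were well above background on both arrays. The senecionine array detected more, with 64.1% of 43379 non-control spots well above background, against 44.4% on the control array. The dimmest signal called well above background was 10.8 intensity units on the senecionine array and 20.6 on the control array. The control array also stood apart in genes known from the nervous system, with log2 ratios (senecionine minus control, each array scaled to its 75th percentile) of -4.32 for the neuronal tubulin Tubb3 and -6.43 for the myelin gene Mbp. The part of that signal in the values below was not tested.

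Neutrophils are short-lived phagocytes made in the bone marrow under granulocyte colony-stimulating factor. They follow CXC chemokines into injured tissue, cross the vessel wall with the help of beta-2 integrins, and release proteases, oxidants and calgranulins there. Granule proteins are transcribed in stages: proteins of the azurophil granules are made early, in the marrow, and proteins of the specific and gelatinase granules later, whereas calgranulins and chemokine receptors belong to late and mature cells. Neutrophils are known to gather in the liver after toxic injury. Several of these genes are not confined to neutrophils. Monocytes also make calgranulins, all leukocytes carry Itgb2, and epithelial cells secrete Slpi.

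The calgranulins and Slpi gave the 3 highest ratios of all 7803 genes measured on both arrays. S100a8, the smaller subunit of the calcium-binding heterodimer calprotectin, had a processed signal of 4559 intensity units on the senecionine array and 44.4 on the control array. It was 77.4-fold higher after senecionine (log2 ratio 6.28 ± 0.26). The error is Agilent's spot error, which covers technical error within the arrays and not the spread between animals.

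S100a9, its partner subunit, had a signal of 4412 on the senecionine array and 36.1 on the control array, a 92.2-fold difference (log2 ratio 6.53 ± 0.28). The ratios of both subunits thus lay within their spot errors of each other. Both control signals were low, at 44.4 and 36.1 units, but above the dimmest detected signal of that array.

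Slpi, a secreted inhibitor of neutrophil elastase and cathepsin G, had a signal of 6185 on the senecionine array and 48.9 on the control array, which makes it 95.3-fold higher (log2 ratio 6.57 ± 0.24). Its other probe had 1436 units on the senecionine array and 5.38 on the control array, where it was not well above background. Against the dimmest detected control signal, that probe was at least 52.6-fold higher. Both Slpi probes therefore lay far apart between the pools and on the same side. The measured genes outside the list with log2 ratios nearest to that of S100a8, over the 2 arrays, were the stress transcription factor Atf3 (6.02), the siderophore-binding granule protein Lcn2 (5.72) and the neutrophil attractant Cxcl1 (5.66).

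**Figure D1:**
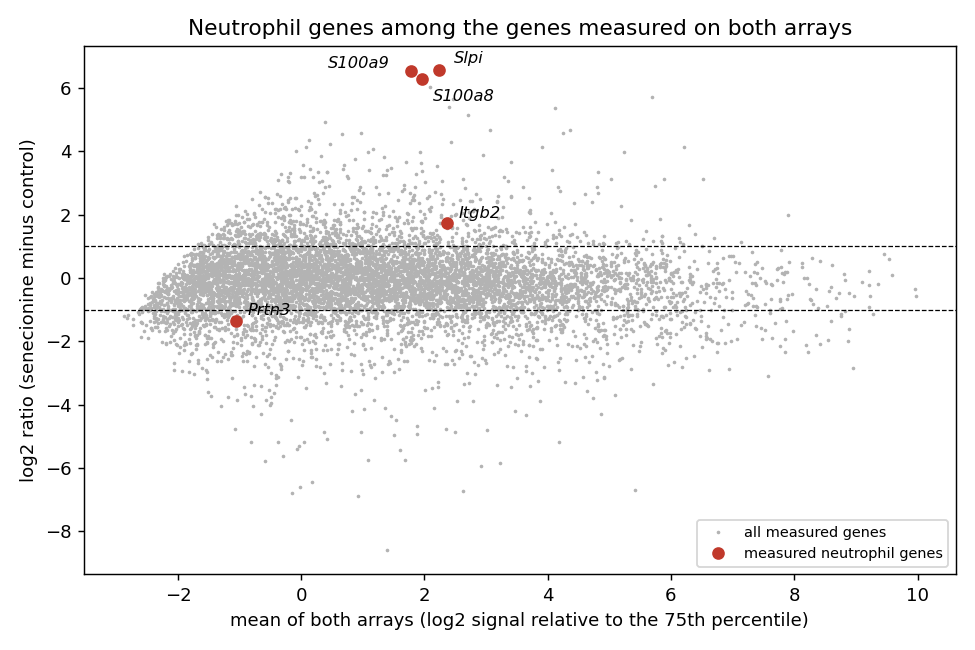
Each grey point is 1 of 7803 genes measured on both arrays, with the mean scaled log2 signal of both arrays on the x axis and the log2 ratio (senecionine minus control) on the y axis, and red points are the 5 measured neutrophil genes. S100a8, S100a9 and Slpi sit at the top, between 6.28 and 6.57, Itgb2 lies at 1.73 and Prtn3 at -1.34, and dashed lines mark 2-fold.

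Itgb2 encodes CD18, the beta chain shared by the leukocyte integrins. Its signal was 1258 on the senecionine array and 287 on the control array, so it was 3.31-fold higher (log2 ratio 1.73 ± 0.21). It ranked 304 among the 7803 measured genes, far behind the calgranulins. In bulk RNA of this kind, a larger number of neutrophils and more RNA of a gene per cell cannot be told apart.

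The 3 surface receptors were dim. Csf3r, the receptor of granulocyte colony-stimulating factor, had a signal of 87.5 on the senecionine array and 5.05 on the control array, where it was not well above background. Set against the dimmest detected control signal, it was at least 3.21-fold higher after senecionine. Cxcr2, the receptor for Cxcl1 and Cxcl2, had 16.6 units on the senecionine array and 4.09 on the control array. Only the first of these was well above background, and it lies below the dimmest detected control signal of 20.6, so no fold is given. Fpr1, the receptor for bacterial and mitochondrial formyl peptides, was not well above background on either array, with 9.18 units on the senecionine array and 4.22 on the control array.

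The granule genes went in opposite directions. Mmp8, neutrophil collagenase of the specific granules, had 101 units on the senecionine array and 4.81 on the control array, where it was not well above background. Its bound was 3.71-fold higher after senecionine. Prtn3, the azurophil serine protease proteinase 3, had 40.6 units on the senecionine array and 77.4 on the control array. It was 2.53-fold lower after senecionine (log2 ratio -1.34 ± 0.25) and the only measured member on that side. With normexp background correction, which adds an offset of 50 and draws dim probes together, its log2 ratio was -0.54, within 2-fold, and the bounds of Csf3r and Mmp8 were 0.74 and 0.85 on the log2 scale.

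**Figure D2:**
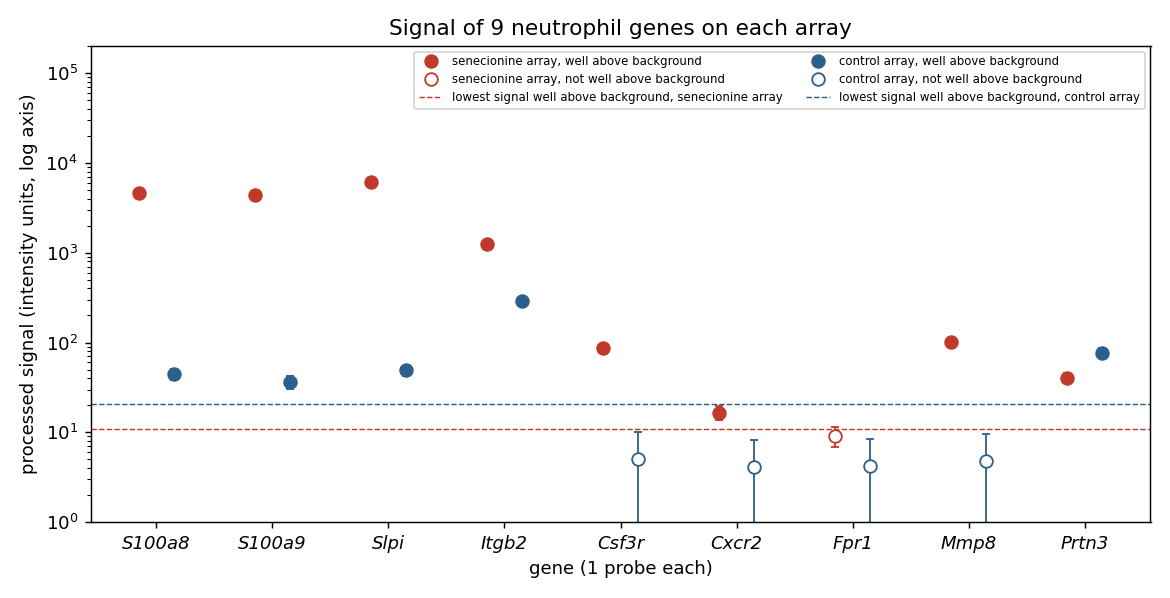
Processed signal in intensity units on a log axis for the probe that represents each of the 9 genes, with the senecionine array in red left of the control array in blue, bars giving Agilent's spot error, open circles probes not well above background, and dashed lines the dimmest signal well above background on each array. S100a8, S100a9 and Slpi lie between 4412 and 6185 on the senecionine array and between 36.1 and 48.9 on the control array, whereas Prtn3 is dimmer on the senecionine array. Bars of the open circles of the control array run below the axis.

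At a threshold of 2-fold, 4 of the 5 measured members were higher and 1 was lower. Of all 7803 measured genes, 11.2% passed that threshold upwards and 17.7% downwards. The senecionine array alone detected another 3 members, as it did 19.1% of all named genes, and for 2 of these 3 the bound reached 2-fold, against 12.2% of the 2612 genes detected in that way. Nothing is read from these shares, because the members were picked with this difference known. The authors' deposited table, a selection of 7404 probes that differ at least 2-fold, lists log2 differences of 6.59 for S100a8, 6.83 for S100a9, 6.85 and 7.85 for the Slpi probes, 1.85 for Itgb2, 3.88 for Csf3r and -1.37 for Prtn3.

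**Figure D3:**
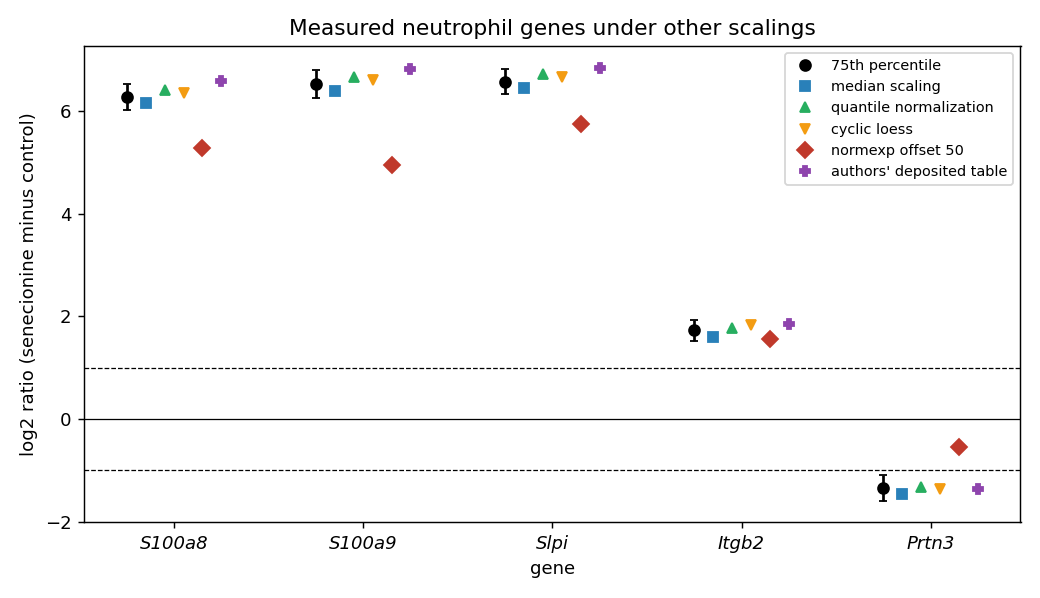
Log2 ratio (senecionine minus control) of the 5 members measured on both arrays with 5 scalings or background corrections and in the authors' deposited table, with the spot error drawn on the 75th percentile value and dashed lines at 2-fold. Slpi, S100a8 and S100a9 stay between 4.96 and 6.85, Itgb2 between 1.56 and 1.85, and Prtn3 is below 0 throughout, but within 2-fold with normexp correction at -0.54.

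Promoter sequence is shown for 4 members, S100a9, Csf3r and Mmp8, which were higher after senecionine, and Prtn3, which was lower. Each covers 250 bases before to 50 bases after the annotated start, 5′ to 3′ on the gene's strand, from RefSeq on assembly GRCr8. The regions are chr2:178490573-178490872 on the minus strand for S100a9, chr5:143582970-143583269 on the plus strand for Csf3r, chr8:13008640-13008939 on the plus strand for Mmp8 and chr7:10476147-10476446 on the minus strand for Prtn3. Capitals mark matches, on either strand, to TTNNGNAA (a core of sites for the myeloid C/EBP factors, N being any base), GAGGAA (a core of PU.1 sites), TGANTCA (an AP-1 site) and TATAAA (the TATA box). No 2 of these matches overlap.
S100a9: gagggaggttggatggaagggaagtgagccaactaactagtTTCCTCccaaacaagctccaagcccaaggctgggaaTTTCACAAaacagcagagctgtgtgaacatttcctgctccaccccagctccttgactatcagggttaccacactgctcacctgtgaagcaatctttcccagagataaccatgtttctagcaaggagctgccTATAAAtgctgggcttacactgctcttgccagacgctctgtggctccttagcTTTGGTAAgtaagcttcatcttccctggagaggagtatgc
Csf3r: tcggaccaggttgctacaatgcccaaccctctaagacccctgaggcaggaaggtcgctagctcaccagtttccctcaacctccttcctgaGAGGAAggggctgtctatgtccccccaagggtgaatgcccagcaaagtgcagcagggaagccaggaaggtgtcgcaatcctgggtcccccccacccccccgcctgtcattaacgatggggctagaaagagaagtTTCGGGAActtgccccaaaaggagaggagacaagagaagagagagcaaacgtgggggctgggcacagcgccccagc
Mmp8: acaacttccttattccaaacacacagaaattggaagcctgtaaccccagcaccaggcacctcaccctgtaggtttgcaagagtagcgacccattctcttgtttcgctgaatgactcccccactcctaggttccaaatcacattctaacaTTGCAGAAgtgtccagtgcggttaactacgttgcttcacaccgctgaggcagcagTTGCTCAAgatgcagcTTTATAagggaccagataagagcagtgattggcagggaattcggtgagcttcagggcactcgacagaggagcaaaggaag
Prtn3: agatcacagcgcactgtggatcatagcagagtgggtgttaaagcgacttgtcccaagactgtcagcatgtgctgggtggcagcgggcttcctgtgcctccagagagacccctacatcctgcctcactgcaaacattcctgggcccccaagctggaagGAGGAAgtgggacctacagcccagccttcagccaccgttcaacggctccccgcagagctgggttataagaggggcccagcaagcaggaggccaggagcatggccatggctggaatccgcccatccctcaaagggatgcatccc

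The S100a9 window held 2 C/EBP matches, 1 PU.1 match and 1 TATA match. That of Csf3r held 1 C/EBP and 1 PU.1 match, that of Mmp8 2 C/EBP matches and 1 TATA match, and that of Prtn3 a PU.1 match only. Promoters of 3 more members were searched and are not printed, because no ratio or fold is given for these genes here. For S100a8, Slpi and Itgb2 no promoter entry was available. Those of Fpr1 and Mpo each held 1 C/EBP and 1 PU.1 match, and that of Cxcr2 held none of the 4 motifs. Such matches are common. Of 33469 promoters of this length, 41.3% held the C/EBP letters, 27.6% the PU.1 letters, 14.2% the TATA letters and 7.33% the AP-1 letters, which none of the 7 windows held. A match is a description of the letters in this window and not a binding site.

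In the gene order of assembly GRCr8, S100a8 and S100a9 are direct neighbours on chromosome 2, within a run of S100 genes. Next to them on the S100a8 side come S100a7a, which was not well above background on either array, S100a6 (log2 ratio 2.76 ± 0.20), S100a5, not detected on either array, and S100a4 (2.43 ± 0.20). At the far end of the run S100a16, S100a13 and S100a1 had log2 ratios of 0.07, -0.54 and -0.50. The measured genes from S100a4 to S100a9 were thus all past 2-fold, and those at the far end were not. S100a10, further along the chromosome, had a log2 ratio of 3.13 ± 0.20. In the list of S100 genes and calgranulin receptors, 4 of 11 measured genes passed 2-fold upwards and none downwards. The list's median log2 ratio was 0.07, and the shares over all measured genes were 11.2% upwards and 17.7% downwards. S100a10, S100a6 and S100a4 were 8.74-fold, 6.78-fold and 5.4-fold higher. Among receptors described for calgranulins, the scavenger receptor Cd36 was 3.27-fold higher, Tlr4 had a log2 ratio of 0.39 ± 0.27, and Ager, detected on the senecionine array only, had a bound of 1.01-fold.

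Other genes of neutrophil biology were placed in 9 lists that leave out the 10 members. They were also drawn up with earlier results of these arrays known. The lists hold 212 different genes, of which 164 could be named on the array and 98 were measured on both arrays. Of these 98, 51 passed 2-fold upwards and 9 downwards after senecionine, with a median log2 ratio of 1.03, against shares of 11.2% and 17.7% and a median of -0.14 over all measured genes. The senecionine array alone detected 44 of the 164 named genes, and for 21 of them the bound reached 2-fold, beside 19.1% and 12.2% over all genes. The control array alone detected 2, the oxidase Nox4 and the cytokine subunit Il23a.

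Granule proteins were higher in 4 and lower in 1 of 7 measured genes (median 1.32), and lower in 2 when spots with outlier flags were kept. Lcn2 had the largest difference, at 52.7-fold (5.72 ± 0.20), but hepatocytes are also known to make it in the acute phase. Padi4, the enzyme that citrullinates histones in neutrophil extracellular traps, was 3.82-fold higher and Cybb, the oxidase subunit carried by specific granules, 2.54-fold. Bpi, a bactericidal protein of azurophil granules, had 27.6 units on the senecionine array and 57.1 on the control array and was 2.75-fold lower (-1.46 ± 0.26), but within 2-fold with normexp correction. The peptidoglycan-binding protein Pglyrp1 and the chitinase-like Chi3l1, detected on the senecionine array only, had bounds of 16.1-fold and 6.3-fold.

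Of 12 measured neutrophil receptors, 5 were higher and none was lower, while the list's median was 0.38. C5ar1, the receptor of the complement fragment C5a, had 1303 units on the senecionine array and 133 on the control array and was 7.4-fold higher. Tlr2 was 4.83-fold, the chemokine receptor Cxcr4 4.18-fold and the Fc receptor Fcgr2a 3-fold higher. Of 9 receptors detected on the senecionine array only, the bound reached 2-fold for 5. The decoy receptor Il1r2 was at least 12.6-fold and Trem1, which amplifies inflammatory signals in neutrophils and monocytes, at least 5.65-fold higher. Macrophages also carry several of these receptors.

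Attractants and growth factors were higher in 6 and lower in 1 of 8 measured genes (median 1.08), but only 3 were higher with median scaling. Cxcl1 had 5256 units on the senecionine array and 78.4 on the control array and was 50.6-fold higher. Cxcl2, the other main rat ligand of Cxcr2, was detected after senecionine only, with a bound of 37.4-fold higher. Ccl3 and stem cell factor (Kitlg) were 6.42-fold and 4.6-fold higher, and Il6, detected on the senecionine array only, had a bound of 2.02-fold. Il23a had 10.8 units on the senecionine array, where it was not well above background, and 23.4 on the control array, a bound of 2.88-fold lower. Cxcl12, the ligand of Cxcr4, was 9.93-fold lower (-3.31 ± 0.20), with -3.16 on its other probe.

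Of 10 measured vascular adhesion genes, 5 were higher and 1 was lower (median 0.76). Procr, the protein C receptor, was 20.5-fold, the hyaluronan receptor Cd44 19.6-fold and Icam1, the endothelial ligand of beta-2 integrins, 2.76-fold higher. The brighter probe of Mcam was 6.47-fold higher, and its other probe had a log2 ratio of 0.02. For Jam2, the lower gene, the brighter probe gave -1.39 and the other 0.16 (log2 ratios), and none was lower when probes were averaged or with normexp correction. Jam3 and Cdh5, detected on the senecionine array only, had bounds of 4.22-fold and 1.01-fold. The selectins Sele and Selp were not well above background on either array.

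Of 11 measured oxidase and leukotriene genes, 5 were higher and none was lower (median 0.72), but 3 were higher with median scaling and 2 with normexp correction. The mitochondrial superoxide dismutase Sod2 was 6.04-fold, the lipoxygenase partner Alox5ap 4.58-fold, Alox15 2.29-fold and the oxidase subunit Ncf4 2.13-fold higher. Nox4, an oxidase catalytic subunit known mainly from cells other than neutrophils, went the other way. It had 2.67 units on the senecionine array, where it was not well above background, and 38 on the control array, which makes it at least 4.67-fold lower.

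Of 16 measured pan-leukocyte genes, 11 were higher and none was lower (median 1.20). The actin-bundling protein Lcp1 was 5.49-fold, the myeloid tyrosine kinase Fgr 4.51-fold, and the surface proteins Cd52 and Sirpa each 3.3-fold higher. Another 8 were detected on the senecionine array only, among them the adaptor Lcp2 (at least 5.87-fold) and the leukocyte common antigen Ptprc (at least 2.68-fold). Of 8 measured myeloid transcription factors, 4 were higher and 1 lower (median 0.96). Cebpd had a log2 ratio of 3.42 ± 0.20. Klf4 was 4.37-fold and Runx1 3.42-fold higher, and Cebpa, which hepatocytes express, 3.3-fold lower. Cebpe, needed for the late granule genes, was detected on the senecionine array only, with 76.9 units there and 4.88 on the control array, a bound of 2.82-fold higher. Lmo2 was at least 2.62-fold higher.

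Protease inhibitors, the family of function of Slpi, were split, with 7 higher and 5 lower of 16 measured (median 0.39). The trypsin inhibitor Spink1 was 25.4-fold, A2m 15.8-fold, the metalloprotease inhibitor Timp1 8.43-fold and the granzyme B inhibitor Serpinb9 4.44-fold higher. Rnase1, a ribonuclease rather than a protease inhibitor, was detected on the senecionine array only and had a bound of 7.1-fold. With quantile normalization 3 were lower, and 2 with cyclic loess or normexp correction.

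**Figure D4:**
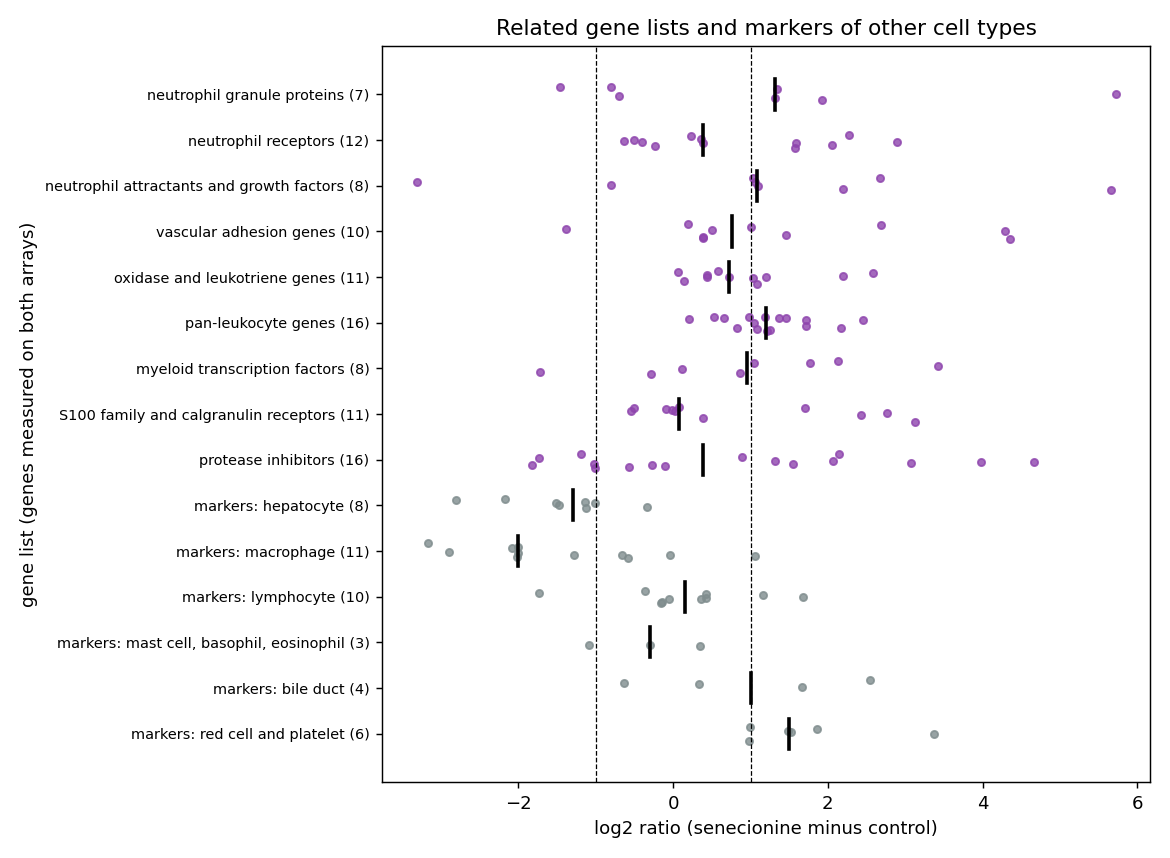
Log2 ratio (senecionine minus control) of each gene measured on both arrays, by list, with neutrophil-related lists in purple, markers of other cell types in grey, the list median as a black bar and the number of measured genes in brackets. Pan-leukocyte genes all lie above 0 with a median of 1.20, macrophage markers have a median of -2.00, and dashed lines mark 2-fold.

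Markers of other cell types were counted in the same way. Over all measured genes, 11.2% passed 2-fold upwards and 17.7% downwards. Among the 11 measured macrophage markers 7 were lower and only Cd68 was higher (within 2-fold with median scaling). Signals, divided by the 75th percentile of their array, were also summed over all named markers of a list, here and below, detected or not. For the 13 named macrophage markers these sums were 110 on the senecionine array and 288 on the control array. The Kupffer cell lectin Clec4f was 8.98-fold, the mannose receptor Mrc1 7.47-fold and the complement gene C1qa 4.25-fold lower, and Cd163 was not well above background on either array. Ccr2, known from monocytes, was detected on the senecionine array only, with a bound of 1.23-fold.

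Of 10 measured lymphocyte markers, 2 were higher (none with normexp correction) and 1 was lower, with sums of 9.87 on the senecionine array and 7.86 on the control array. Cd3g was 3.21-fold and Cd8b 2.24-fold higher, Gzma 3.32-fold lower and Cd8a at least 2.79-fold higher, and Cd4 and Cd2 were not detected on either array. Of 13 markers of mast cells, basophils and eosinophils, 8 were not detected on either array, and the sums were 2.49 on the senecionine array and 3.56 on the control array. Tpsab1 was 2.13-fold lower (within 2-fold with normexp correction), Mcpt1 and Prg2 had log2 ratios of 0.35 ± 0.33 and -0.30 ± 0.34, and Tpsb2 had a bound of 1.4-fold.

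Of 6 measured red cell and platelet markers, 4 were higher and none was lower, with sums of 56.7 on the senecionine array and 16.6 on the control array. Platelet factor 4 (Pf4) was 10.3-fold, beta-globin Hbb 3.63-fold and Alas2 2.87-fold higher, with bounds of 8.7-fold for Treml1 and 3.47-fold for Epb42, and Ppbp was not detected on either array. Bile duct markers, of an epithelium that could also hold Slpi, were higher in 2 of 4 measured genes and lower in none. With normexp correction 1 was higher, and with cyclic loess 1 was lower. Sums over the 8 named markers were 25.9 on the senecionine array and 1.5 on the control array. Most of the senecionine sum came from Spp1, which is not among the 4 measured. It was the brightest of the named markers on that array at 2897 units, followed by Epcam at 300. Spp1 was at least 106-fold, Epcam 5.83-fold and Krt19 3.15-fold higher, and Cftr was not detected on either array. Of 8 hepatocyte markers, 7 were lower (4 with quantile normalization or cyclic loess) and none was higher, with sums of 1531 on the senecionine array and 2850 on the control array, and Ass1, Cyp2e1 and Apoh were 7-fold, 4.52-fold and 2.85-fold lower. The part of these cell types in the values of the neutrophil genes was not tested.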

How the data were processed

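Per the file headers, the deposited intensity values are processed signals of Agilent Feature Extraction 10.7.3.1, background-subtracted within each array. The deposited log2 values of the series table were scaled in a way not given in the sources used here, and their direction was found against the scanner signals, where all 7355 shared probes had the same sign.

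Here the log2 processed signal minus each array's 75th percentile (134 intensity units on the senecionine array and 101 on the control array) was compared. Control spots and spots with outlier flags (497 on the senecionine array and 522 on the control array) were left out, and spots of a probe were averaged. No non-control spot was saturated. Of 40516 probes, 17250 were named by unversioned RefSeq accession through the GRCr8 gene table. No probe coordinates are given. A gene counted as measured if both arrays had a probe of it well above background, and its brightest such probe stands for it. Where only 1 array detected it, the bound divides the bright signal by the dim probe's own signal or, if higher, the dimmest detected one of that array. No test was possible with 1 array in each group; the number of arrays limits the precision, and 2-fold marks size only.

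The members and lists were chosen with earlier results of these data known. Named are all members, the 3 genes nearest to S100a8, up to 4 genes per list with the largest ratio (3 for markers) and up to 2 with the highest bound, and genes singled out after their values were seen. Some genes of the lists are counted but not reported here by name. Counting was tested on simulated data. Alternatives were other scalings, normexp correction with offset 50 on median spot signals (the files hold no mean signals), filters, probe rules and thresholds. Quantile, loess and normexp values came from R 4.3.3 with limma 3.58.1. The rest ran in Python 3.11.15 with pandas 2.3.3 and numpy 2.4.6, and figures in matplotlib 3.10.9.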

Additional observations from a re-analysis of the deposited data

Results flagged for a closer look

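The other Slpi probe, which the gene comparison does not use, carried signal above the control array: it was at least 52.6-fold higher after senecionine, with 1436 intensity units on the senecionine array and 5.38 on the control array.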

How the results depend on the processing

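The 4 higher members stayed at least 2-fold higher with each scaling, with normexp correction, with outlier spots kept and with probes averaged. They are also higher in the authors' deposited table. That table holds only probes that differ at least 2-fold, so it cannot show whether they stay past that threshold. When detection on 1 array sufficed, 7 members were at least 2-fold higher, since Csf3r, Cxcr2 and Mmp8 were then counted at their measured values. The count of lower members was 0 with normexp correction and 0 at a 4-fold threshold. Over the 9 lists pooled, 88 genes were higher (median 1.24) when detection on 1 array sufficed, and 4 were lower (median 0.82) with normexp correction. Median scaling shifted the median of all measured genes to -0.26, against -0.14 with the 75th percentile. Over all measured genes, 761 instead of 1379 were lower with normexp correction, and 2388 instead of 876 were higher when detection on 1 array sufficed. No paired analysis was possible because each group is 1 pool on 1 array, and for the same reason no replicate could be left out. The dimmest detected signal of 20.6 units on the control array limits what can be said of Csf3r, Cxcr2, Fpr1 and Mmp8.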

Other observations

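Further genes of the granule list, chosen after their values were seen, differed in direction. Srgn, the proteoglycan that packs granule proteins in many blood cells, had 1576 units on the senecionine array and 477 on the control array and was 2.49-fold higher. The defensin Np4 had 171 units on the senecionine array and 210 on the control array (log2 ratio -0.70 ± 0.21), and the dipeptidyl peptidase Ctsc, which activates azurophil proteases, had a log2 ratio of -0.80 ± 0.20. Elane, neutrophil elastase, had 14.5 units on the senecionine array, where it was well above background, and 17.9 on the control array, where it was not. Ctsg was not well above background on either array.

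Mmp9 of the gelatinase granules had 66.5 units on the senecionine array and 4.99 on the control array, with a bound of 2.44-fold higher. The cathelicidin Camp had 50.5 units on the senecionine array and 4.36 on the control array, with a bound of 1.85-fold higher. Ngp and Olfm4 were not well above background on either array. The integrin partner of Itgb2 in Mac-1, Itgam, was detected after senecionine only, with a bound of 4.16-fold higher. Itgal had 23.3 units on the senecionine array and 5.15 on the control array, too dim there for a bound above 1. Csf3, the ligand of Csf3r, was not well above background on either array. Among genes with the protein fold of Slpi, Wfdc2 was 4.19-fold higher, Wfdc18, detected after senecionine only, had a bound of 2.86-fold, and Wfdc1 was 2.04-fold lower, while Wfdc3 had a log2 ratio of -0.10 ± 0.21.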
